A study of Sus scrofa with 4 samples.

Results

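Genes for the uptake and oxidation of fatty acids were followed on 4 Affymetrix Porcine Genome Arrays of minipig heart after myocardial infarction (MI). The genes were chosen by symbol, as carriers, enzymes and regulators of fatty acid use: FABP3, FABP4, CD36, LPL, ANGPTL4, ACSL1, CPT1A, CPT1B, ACADM and PPARGC1A. They were chosen with earlier results of these data known, and the study itself lists CPT1A and PPARGC1A among its changed genes. The shares of the array given beside them are therefore a scale and not a test. The annotation of the array gave 11 probe sets for 9 of these 10 genes, of 24123 probe sets and 6765 genes with a symbol in all. LPL and ANGPTL4 had 2 probe sets each and the other 7 genes had 1. No probe set carried the symbol CD36, and CD36 was not analysed here.

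The tissue came from the border zone and the infarct zone of hearts given a myoblast transplantation and of control hearts, with 1 array for each of the 4 conditions. According to the methods, the animals were female Chinese Bama minipigs aged 4 months, with MI made by permanent ligation of the left circumflex coronary artery, and the transplanted cells were human skeletal myoblasts in DMEM medium. The methods describe a control treatment of DMEM injection, with cyclosporin A at 5 mg/kg for both this group and the myoblast group, while the labels call the control tissue untreated, so a difference in injection or in cyclosporin A cannot be told apart from one in myoblasts if the labels are taken literally. Neither source gives the number of minipigs behind an array or the week of sampling. With 1 array per condition no difference has a replicate check, and none was tested.

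Each value is a MAS 5.0 signal, the brightness of a probe set after background subtraction and scaling of the array to a common mean, given in linear units. A ratio is the signal of one array over that of another, and a probe set is counted as higher or lower at 2-fold, the threshold of the methods. Array medians ran from 137 to 142 units. All member probe sets lay above the median of every array except the dimmer ANGPTL4 probe set, which lay below it on each. The 28S rRNA signal was lower on the myoblast arrays (13.05 and 13.32 on the log2 scale) than on the control arrays (13.94 and 13.96), and the 3'/5' signal ratio of EF1A, a sign of RNA integrity, was 3.01 and 2.49 against 4.17 and 4.13, border zone first. That of GAPDH was 1.73 and 1.38 against 1.55 and 1.52 and did not separate the treatments. That of actin was lower on both myoblast arrays, at 24.6 and 19.5 against 24.9 and 36.8, with the border zone arrays nearly level. The myoblast border array stood apart on 23 probe sets for the dap, lys, phe and thr transcripts, which are added to RNA before labelling. Their median log2 ratio to the control border array was 1.25, with all 23 above 0. For the infarct zone arrays it was -0.45, with 0 of 23 above 0, and for infarct over border after myoblasts -1.13. On 27 probe sets for the hybridisation spike-ins bioB, bioC, bioD and cre, the median log2 ratio of myoblast over control was -0.01 in the border zone. In the infarct zone it was -0.32, with 0 of 27 above 0. Results of the infarct zone between treatments do not use the myoblast border array, but their own arrays differ on these spike-ins. The part of these measures in any result was not tested. In whole tissue, fewer cells of a type and less RNA per cell cannot be told apart.

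Heart muscle takes most of its energy from fatty acids. Lipoprotein lipase, on the vessel wall, frees them from circulating triglyceride. Binding proteins carry them within the cell, acyl-CoA synthetases activate them, and carnitine palmitoyltransferases pass them to the mitochondria, where dehydrogenases begin beta-oxidation. Nuclear receptors of the PPAR family and their coactivator PPARGC1A raise the transcription of many of these genes, and injured or failing heart is known to shift from fatty acids towards glucose.

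**Figure D1:**
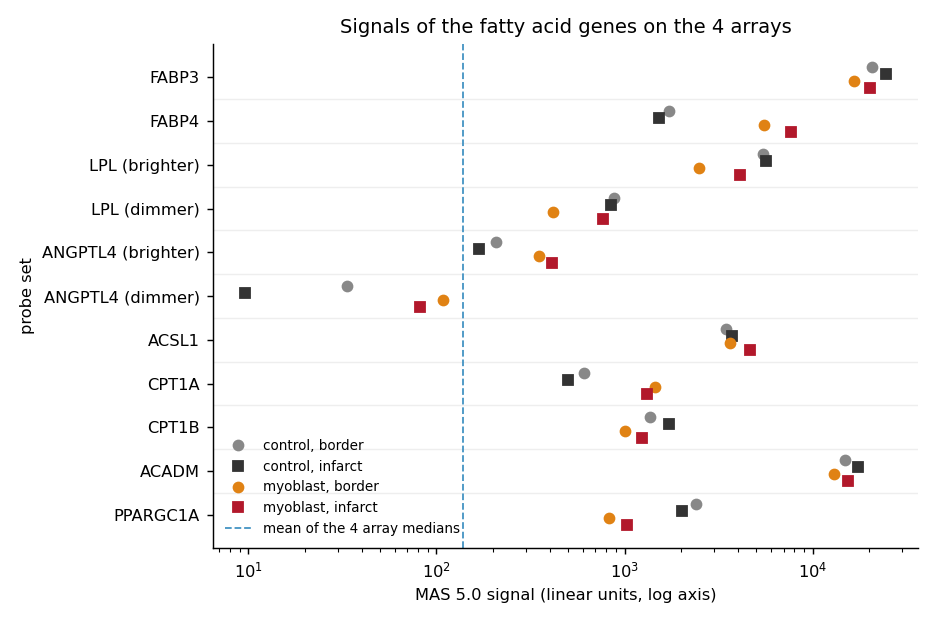
MAS 5.0 signals (x axis, log scale) of the 11 probe sets (y axis) on the 4 arrays, 1 point per array, with the mean of the array medians as a dashed line. The myoblast points of FABP4, CPT1A and both ANGPTL4 probe sets lie to the right of both control points, and those of FABP3, CPT1B, PPARGC1A and both LPL probe sets to the left.

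With myoblasts, the carrier FABP4 and the mitochondrial gatekeeper CPT1A were over 2-fold higher than in control tissue of either zone. The lipase inhibitor ANGPTL4 was over 2-fold higher on its dimmer probe set, and on its brighter one in the infarct zone, with a ratio of 1.69 in the border zone. The coactivator PPARGC1A and lipoprotein lipase (LPL) were over 2-fold lower in the border zone. Their infarct zone ratios of 0.505 for PPARGC1A and 0.729 and 0.905 for LPL did not pass 2-fold. FABP3, CPT1B, ACSL1 and ACADM, the muscle carrier and 3 enzymes of the oxidation route, differed by less than 2-fold in each zone. In the border zone 3 of the 11 probe sets passed 2-fold upwards and 3 downwards, beside 9.95% and 10.4% of the whole array. In the infarct zone 4 passed 2-fold upwards and 0 downwards, beside 10.5% and 9.58% of the whole array. Among probe sets above the array median the background was smaller: 3.41% up and 2.83% down for the border zone, 3.37% up and 2.55% down for the infarct zone. Of the 10 members above that median, 2 passed upwards and 3 downwards (border), and 3 upwards and 0 downwards (infarct). Counted by gene, with the brightest probe set, 2 of 9 passed upwards and 2 downwards (border), beside 6.37% and 5.71% of all genes. The infarct zone counts by gene were 3 and 0, beside 6.44% and 5.69%. The median log2 ratio of the 11 probe sets was -0.18 (border) and -0.14 (infarct), while that of all probe sets was 0.00 and 0.01. With quantile normalization the medians of the 11 were -0.10 and -0.03. FABP4, CPT1A and the dimmer ANGPTL4 probe set were 2-fold higher in both zones, as 2.91% of all probe sets and 1.11% of those above the array median were. No member was 2-fold lower in both, as 2.81% and 0.958% were.

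Every one of the 11 probe sets had its ratio on the same side of 1 in both zones, 5 above and 6 below. Of the probe sets above the array median, 67.6% did so. Both myoblast signals lay above both control signals for 4 of the 11, as for 22.8% of all probe sets and 27.7% of those above the array median. They lay below both for 5, as for 22.1% and 25.4%. ACSL1 and ACADM were the remaining genes, with overlapping signals. The zones may come from the same minipigs and are not replicates of a treatment.

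**Figure D2:**
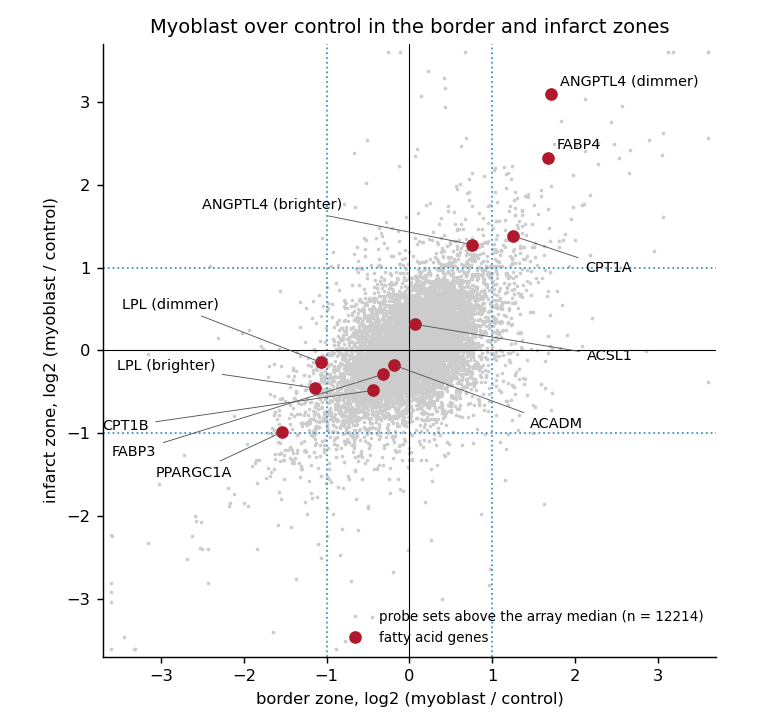
Log2 of the myoblast to control ratio, border zone on the x axis against infarct zone on the y axis, with the 11 fatty acid probe sets in red and the 12214 probe sets above the array median in both zones in grey, those beyond the axes drawn at the edge. Dotted lines mark 2-fold: FABP4, CPT1A and the dimmer ANGPTL4 probe set lie past it in both zones, PPARGC1A and both LPL probe sets past it in the border zone.

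FABP4, the fatty acid binding protein of adipocytes, macrophages and capillary endothelium, had the largest ratios among the member probe sets above the array median. Its signals with myoblasts were 5489.8 (border) and 7632 (infarct). In control tissue they were 1727 and 1529. Both myoblast signals were higher than both control signals, with ratios of 3.18 (border) and 4.99 (infarct). Of the brightest probe sets, those averaging over 2048 units, 2.09% (border) and 1.84% (infarct) passed 2-fold upwards. FABP3, the binding protein of heart and skeletal muscle, gave 16562 and 20129 after myoblasts, border zone first, and 20748 and 24628 in control tissue. Both myoblast signals were below both control signals, and the ratios of 0.798 and 0.817 were nearly alike in the zones. With quantile normalization of the arrays the infarct zone log2 ratio of FABP3 was -0.05 in place of -0.29.

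LPL encodes lipoprotein lipase, which releases fatty acids from triglyceride-rich lipoproteins. Its brighter probe set had signals of 2475 (border zone) and 4111 (infarct zone) with myoblasts against 5444 and 5638 in controls. The dimmer probe set had 417 and 765 against 876 and 845. On both probe sets the myoblast border array was the low one, with ratios of 0.455 and 0.476 to the control border array. In the infarct zone the ratios were 0.729 and 0.905, short of 2-fold. ANGPTL4 encodes a secreted protein that inactivates lipoprotein lipase and is a known PPAR target. Its brighter probe set had 350.3 and 409.7 with myoblasts against 207 and 169 in controls, ratios of 1.69 and 2.42. Its dimmer probe set had 109 and 81.6 against 33.3 and 9.57. All 4 of these signals were under the array medians, and its ratios were 3.26 and 8.52. In the border zone 8.15% of probe sets of like mean signal (32 to 128 units) passed 2-fold upwards, and in the infarct zone 29.2% (under 32 units) did. With low signals raised to the 25th percentile of their array, its log2 ratios were 1.58 and 1.11. A floor at the array median cannot test this probe set, because all its signals lie under that floor. The values it gave, 0.01 and 0.05, are the log2 ratios of the array medians.

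ACSL1, the main acyl-CoA synthetase of heart, activates fatty acids for oxidation. Its signals were 3613 and 4631 with myoblasts and 3449 and 3722 in controls, and its ratios of 1.05 and 1.24 lay short of 2-fold. CPT1A and CPT1B are the liver and muscle forms of the enzyme that couples long-chain fatty acids to carnitine at the outer mitochondrial membrane. They lay on opposite sides of control in both zones. CPT1A gave 1446 and 1310.4 after myoblasts, and 608 and 502 in control tissue. All myoblast signals of CPT1A were over 2-fold above the control signals, with ratios of 2.38 and 2.61. Among probe sets averaging 512 to 2048 units, 1.96% (border) and 1.72% (infarct) passed 2-fold upwards. CPT1B gave 1008 and 1233, and 1371 and 1725 in control tissue. Its ratios of 0.735 and 0.715 were short of 2-fold, with both myoblast signals below both control signals.

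ACADM encodes the medium-chain acyl-CoA dehydrogenase, which catalyses the first step of mitochondrial beta-oxidation. Its signals were 12995 and 15381 with myoblasts and 14758 and 17408 in controls. The treatments overlapped, and the ratios of 0.880 and 0.884 differed little between the zones. PPARGC1A, the coactivator of mitochondrial and fatty acid oxidation genes, gave 829 and 1025 after myoblasts, and 2403 and 2029.7 in control tissue. Both myoblast signals were below both control signals. The border zone ratio was 0.345, and 1.45% of probe sets of like mean signal (512 to 2048 units) were at least 2-fold lower there. The infarct zone ratio of 0.505 lay just short of 2-fold, and with arrays centred on their medians it was 0.488, just past it.

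Fewer members passed 2-fold between zones than between treatments. In control hearts 0 of the 11 probe sets were 2-fold higher in the infarct than the border zone and 1 was lower, beside 8.95% and 8.25% of the whole array, and 0.525% and 0.700% of it above the array median. The exception was the dimmer ANGPTL4 probe set, with 9.57 against 33.3 units. After myoblasts 0 were 2-fold higher and 0 lower, beside 9.77% and 8.18% of the whole array, and 1.36% and 2.32% of it above the array median. The median log2 ratio of infarct over border was -0.05 in controls and 0.29 with myoblasts, beside 0.00 and 0.03 over all probe sets. The control median turned to 0.05 with each gene read by its brightest probe set. Of the 11, 5 in controls were above 1, and with myoblasts 9 were, the exceptions being CPT1A and the dimmer ANGPTL4 probe set.

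**Figure D3:**
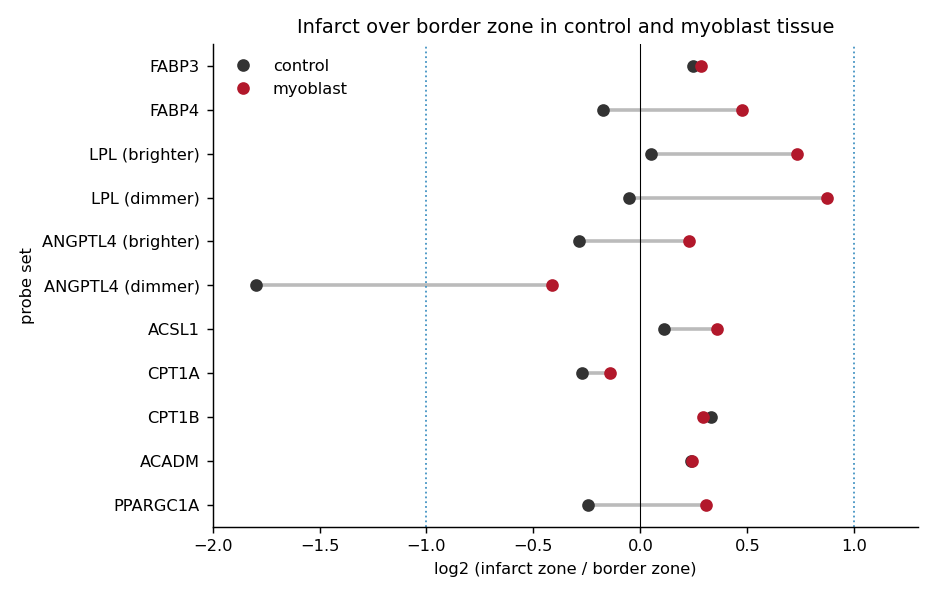
Log2 ratio of infarct over border zone (x axis) of each probe set (y axis) in control tissue (black) and after myoblasts (red), with dotted lines at 2-fold. FABP3, CPT1B and ACADM have nearly the same ratio under both treatments, while both LPL probe sets move from near 0 to 0.73 and 0.87.

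After myoblasts LPL differed most between zones among the members above the array median, with infarct over border ratios of 1.66 on the brighter and 1.83 on the dimmer probe set. In controls they were 1.04 and 0.964. FABP4 had 1.39 with myoblasts against 0.885 in controls, PPARGC1A 1.24 against 0.845, and the brighter ANGPTL4 probe set 1.17 against 0.819. ACSL1 followed with 1.28 against 1.08. A small excess in the infarct zone under either treatment was kept by FABP3, CPT1B and ACADM. FABP3 had 1.22 with myoblasts and 1.19 in controls, CPT1B 1.22 and 1.26, and ACADM 1.18 and 1.18. With quantile normalization the control log2 ratios of FABP3 and ACADM were 0.11 and 0.10 in place of 0.25 and 0.24, and that of CPT1B 0.35 in place of 0.33. CPT1A was lower in the infarct zone under both treatments, with ratios of 0.907 with myoblasts and 0.826 in controls. Each zone ratio shares its arrays with the treatment ratios above, so these are the same 4 signals read the other way. The differences between zones in the treatment effect run from -0.04 on the log2 scale for CPT1B to 0.93 for the dimmer LPL probe set, and to 1.39 for the dimmer ANGPTL4 probe set, and were not tested.

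Around the members, 90 further genes of fatty acid handling were measured, each read by its brightest probe set. Of these, 5 were 2-fold higher and 5 lower in the border zone, where 6.37% and 5.71% of all genes were. In the infarct zone 5 were higher and 4 lower, where 6.44% and 5.69% of all genes were. Between zones 3 were higher and 2 lower in the infarct zone of controls (4.86% and 4.11% of all genes), and 4 and 4 after myoblasts (5.40% and 4.52%). These shares were near those of the array. The median log2 ratios of the 90 genes with myoblasts were -0.14 and -0.06, beside 0.02 and 0.00 over all genes. Among the pathway genes above the array median, 1 of 70 was 2-fold higher and 0 lower in the border zone, and 3 of 69 higher and 0 lower in the infarct zone. These genes were chosen after their values were seen: ELOVL6 in the border zone, and APOE, PPARG and SLC27A6 in the infarct zone. No gene of these lists passed 2-fold the same way in both zones with signals above the array medians.

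**Figure D4:**
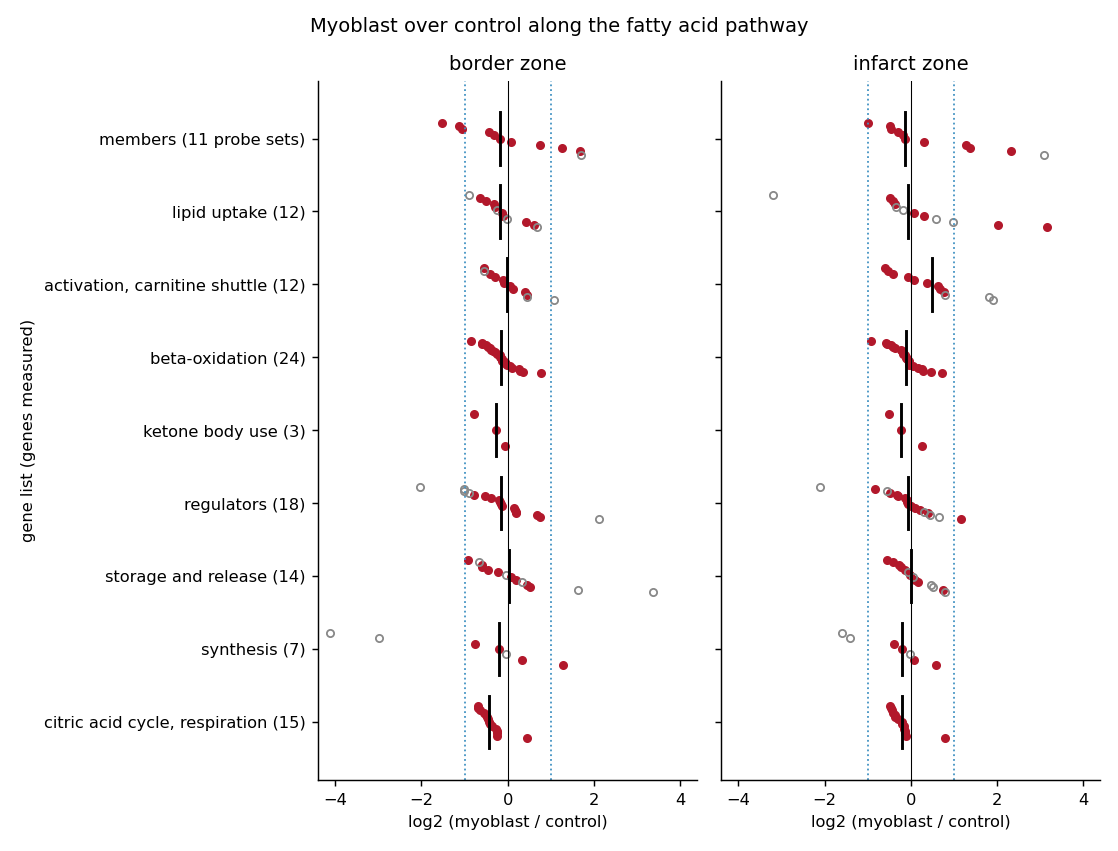
Log2 of the myoblast to control ratio (x axis) in each zone for the 11 member probe sets and for the genes of each step of fatty acid handling (y axis, with how many were measured), each gene by its brightest probe set. Black bars are medians, dotted lines mark 2-fold, and grey open points are signals not above the array median; the 24 beta-oxidation genes all lie within 2-fold.

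Mitochondrial and peroxisomal beta-oxidation was the most completely measured step, with 24 genes, all above the array median and 0 past 2-fold in any of the 4 comparisons. Of these, 16 were lower and 4 higher in both zones with myoblasts, where 33.1% and 35.4% of genes above the array median were (31.3% and 33.2% of all genes). The median log2 ratio was -0.16 (border) and -0.11 (infarct), beside 0.028 and -0.001 for all genes above the array median. For all probe sets averaging over 2048 units it was -0.06 and -0.10, so the infarct zone value is near that of bright probe sets. HADHB, a subunit of the trifunctional protein, had 0.991 (border) and 0.966 (infarct) by its brightest probe set. Its other probe sets had 0.700 and 0.838, and 0.925 and 0.985. SCP2, a peroxisomal thiolase and lipid carrier, had 0.900 and 0.889. Genes named in the next sentence were chosen after their values were seen. ECHS1, the enoyl-CoA hydratase, had 0.665 and 0.674, the electron carrier subunit ETFB 0.552 and 0.850, and the long-chain dehydrogenase ACADL 1.20 and 1.65.

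Of 12 genes of activation and the carnitine shuttle, 1 (border) and 2 (infarct) were at least 2-fold higher and 0 lower, and none of those higher was above the array median. The acyl-CoA binding protein DBI had ratios of 0.932 and 0.956 and the synthetase ACSL4 1.04 and 1.05. The carnitine-acylcarnitine carrier SLC25A20, which works in the step after CPT1, had 1.33 and 1.59 at signals of 627 to 997, and the acetyltransferase CRAT 0.686 and 0.665. Both were chosen after their values were seen. CPT2, the inner membrane partner of CPT1A, was dim, with signals of 59.7 to 107.

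Of 12 further genes of lipid uptake and circulating lipid, 0 were past 2-fold in the border zone, and 2 were higher and 1 lower in the infarct zone. Caveolin 1 (CAV1), of endothelial and fat cell membranes, had ratios of 0.818 and 0.716, and GOT2, a mitochondrial aminotransferase also described as a fatty acid binding protein, 0.704 and 0.756. SLC27A6, a fatty acid transport protein of heart, gave 176 and 375 after myoblasts, and 115 and 92.7 in control tissue, on its brightest probe set. Its other probe sets were dim, with signals of 9.27 to 34.0. They did not share a direction, with ratios of 2.04 and 0.805, and 0.639 and 2.32. APOE, the apolipoprotein of macrophages and liver, had 297 and 329 against 220 and 36.7, so that the control infarct array was the low one. GPIHBP1, the endothelial anchor of lipoprotein lipase, was dim, with 49.8 and 99.6 against 92.1 and 50.8.

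Of 18 regulators of oxidation, 1 was at least 2-fold higher and 3 lower in the border zone, and 1 higher and 1 lower in the infarct zone. PPARG, the nuclear receptor of fat cells and macrophages, had 149 and 249 with myoblasts against 92.8 and 112 in controls, ratios of 1.61 and 2.23. PPARA was dim, with signals of 14.4 to 32.5 on its brighter probe set. PDK4, a PPAR target that restrains glucose oxidation, had ratios of 0.889 and 0.801 on its brighter probe set and 0.490 and 0.693 on the other. PRKAA2, a catalytic subunit of AMP-activated kinase, had 0.760 and 0.945. PRKAG2, a regulatory subunit of the same kinase that was chosen after its values were seen, had 0.580 and 0.560.

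Of the genes of storage and release, synthesis and ketone use, ELOVL6 was the one past 2-fold with myoblasts and above the array median. Of 14 storage and release genes, 2 were higher and 0 lower in the border zone and 0 past 2-fold in the infarct zone. The triglyceride lipase PNPLA2 had 1.14 and 0.983 and the monoglyceride lipase MGLL 0.658 and 0.753. A dimmer PNPLA2 probe set had 0.299 and 3.31 at signals of 14.1 to 55.1. Of 7 synthesis genes, 1 was higher and 2 lower in the border zone and 0 higher and 2 lower in the infarct zone. The desaturase SCD had 0.595 and 0.873 and the fatty acid synthase FASN 0.867 and 1.05. ELOVL6, an elongase of fatty acids, had 2.42 and 1.49 on its brightest probe set and 1.85 and 2.12 on the next. The 3 ketone genes measured were all within 2-fold, OXCT1 at 0.953 and 1.19 and BDH2 at 0.833 and 0.700.

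Genes of the citric acid cycle and respiratory chain were read beside these lists. Of 15 measured, 14 were lower in both zones with myoblasts and 1 higher, where 33.1% and 35.4% of genes above the array median were. Their median log2 ratios were -0.43 and -0.21, and 0 passed 2-fold. The ATP synthase subunits ATP5B and ATP5A1 had ratios of 0.745 and 0.913, and 0.783 and 0.778. The gene that was higher was cytochrome c (CYCS), at 1.37 and 1.74.

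The members are expressed by several cell types, so marker lists were read beside them. Of all genes, 33.2% were higher and 31.3% lower in both zones with myoblasts, and of those above the array median 35.4% and 33.1%. These shares stand beside the counts of every marker list. Of 17 cardiomyocyte markers, 14 were lower in both zones with myoblasts and 1 was higher in both, the natriuretic peptide gene NPPA at ratios of 4.24 and 3.38. Their median log2 ratio was -0.25 (border) and -0.30 (infarct), beside -0.06 and -0.10 for all probe sets averaging over 2048 units. Their summed signal was 313767 and 339483 with myoblasts against 364716 and 410640.0 in controls. FABP3, CPT1B, ACADM, LPL and PPARGC1A, which heart muscle cells express, had ratios under 1 in both zones. With quantile normalization the infarct zone log2 ratio of ACADM was -0.03 in place of -0.18, and that of FABP3 -0.05 in place of -0.29. Those of CPT1B, LPL and PPARGC1A changed little. ACSL1, named above as the main acyl-CoA synthetase of heart, had ratios of 1.05 and 1.24. The part of the cardiomyocyte markers in these ratios was not tested. Of 12 endothelium markers, 6 were higher and 2 lower in both zones, at medians of 0.15 and 0.12 and sums of 8959.8 and 10831 against 8708 and 8382. The endothelial cadherin CDH5 had ratios of 1.37 and 2.04 while PECAM1 had 0.860 and 1.12 and VWF 0.899 and 1.05. Of 13 macrophage and monocyte markers, 7 were higher and 0 lower in both zones, at medians of 0.47 and 0.52 and sums of 8945.5 and 11820.5 against 6709 and 7871.5. The scavenger receptor CD163 had 0.792 and 1.39 on its brightest probe set and 0.218 and 0.316 on the other. The part of endothelium and macrophage markers in the FABP4 result was not tested.

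**Figure D5:**
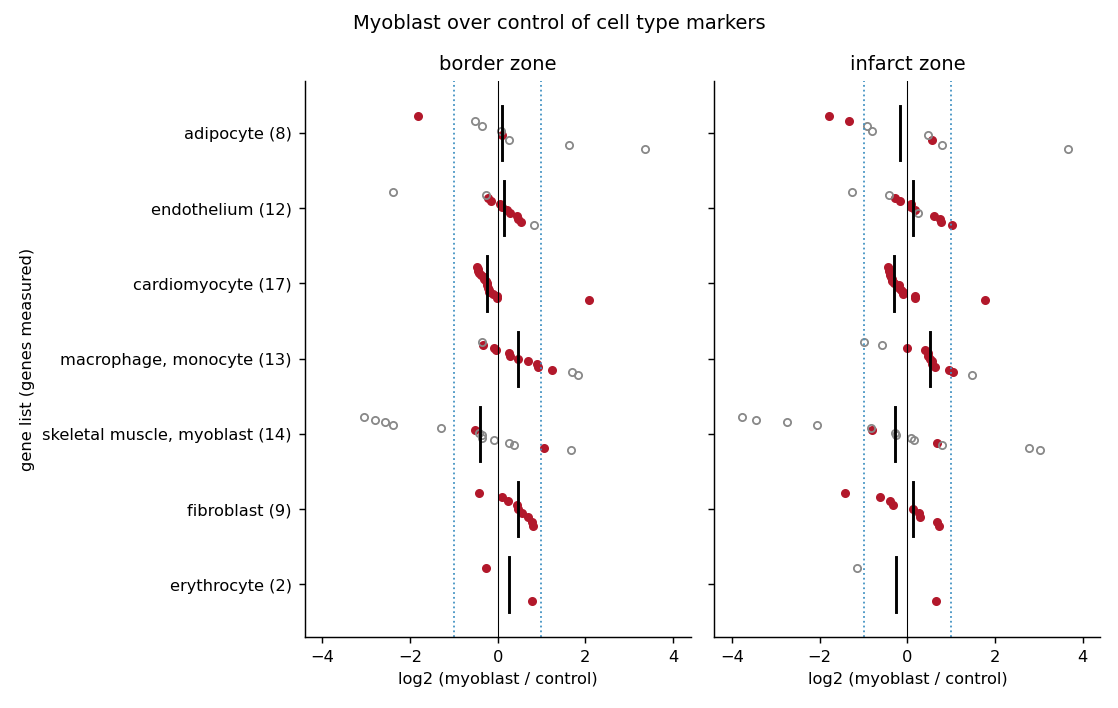
Log2 of the myoblast to control ratio (x axis) in each zone for cell type markers (y axis, with how many were measured), each gene by its brightest probe set. Black bars are medians, dotted lines mark 2-fold, and grey open points are signals not above the array median; macrophage markers have medians of 0.47 and 0.52, cardiomyocyte markers -0.25 and -0.30.

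Adipocyte markers were mostly dim: of 8 measured, 2 were above the array median in both zones, and 3 were higher and 2 lower in both zones with myoblasts. Adiponectin (ADIPOQ), a defining marker, gave 22.2 and 12.3 after myoblasts and 28.6 and 21.6 in control tissue, well under the array medians, on the probe set that the annotation assigns to it. These are ratios of 0.777 and 0.568. The study listed a far lower ratio for adiponectin and named no probe set. Leptin (LEP) had 115 and 56.2 against 109 and 193 on its brightest probe set. The sum of the list was 3947 and 4702 against 3856 and 3741.5, most of it complement factor D (CFD), with 3570.1 and 4227 against 3304 and 2872. The other marker above the array median, the glycerol phosphate dehydrogenase GPD1, was over 2-fold lower in both zones, with 96.9 and 195 against 342 and 488, ratios of 0.283 and 0.400. Of 14 skeletal muscle and myoblast markers, 2 were above the array median in both zones, and 1 was higher and 5 lower in both zones. Their sums of 14982 and 15638 against 10448 and 12559 are mostly TNNT1, a slow muscle troponin, at 11481 and 13056 against 5520 and 8196. The array holds probes to pig transcripts, and how much RNA of the human myoblasts binds to them was not measured. Of 9 fibroblast markers, 5 were higher and 1 lower in both zones, at medians of 0.46 and 0.12, and of 2 erythrocyte markers 1 was higher and 1 lower in both zones.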

How the data were processed

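RNA of minipig heart was hybridised by the authors to Affymetrix Porcine Genome Arrays after labelling with a 3' IVT kit, scanned on a GeneChip Scanner 3000 with Command Console 3.1, normalized with MAS 5.0 and handled in GeneSpring 11.0. The authors deposited log2 signals, which were taken without further scaling. With 2% trimmed at each end, the mean signal was 500.11 to 500.13 on every array. The lowest signal, 1, was given to 95 to 136 probe sets of an array. Of 24123 probe sets, 10099 had a single symbol in the platform annotation, 198 several and 13826 none. By gene ID 9989 of them matched the reference, with 0 symbols changed.

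For each probe set the log2 signals of paired arrays were subtracted, in 4 comparisons with 1 array per condition. No test was run, since no spread between minipigs can be estimated, and the number of arrays limits the precision. A fold of 2 was counted, beside the share of all probe sets past it and of those with like mean signal (limits 32, 128, 512 and 2048 units). A probe set is above the array median when the higher signal of its pair exceeds the median of that array. Genes outside the members were read by the probe set of highest mean signal.

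The members and lists were chosen with earlier results of these data known. All members are named; of other pathway genes, those past 2-fold above the array median in one direction in both zones (between zones, in both treatments), and the 2 of highest mean signal in each list. Others were chosen with their values known: APOE, PPARG, SLC27A6, ELOVL6, CPT2, GPIHBP1, PPARA, CYCS, the marker genes named and those so described in the text. Alternatives were normalizing by quantiles, equal array medians, raising low signals to the array median or to the 25th percentile, thresholds of 1.5-fold and 4-fold, probe sets above the array median only, and counting by gene. The counting was tested on simulated data. Python 3.11.15, pandas 2.3.3, numpy 2.4.6 and matplotlib 3.10.9 were used.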

Additional observations from a re-analysis of the deposited data

Results flagged for a closer look

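For 4 probe sets the infarct over border ratio lay on opposite sides of 1 in control and myoblast tissue. They were FABP4 (0.885 in controls and 1.39 with myoblasts), the dimmer LPL probe set (0.964 and 1.83), the brighter ANGPTL4 probe set (0.819 and 1.17) and PPARGC1A (0.845 and 1.24). Each ratio rests on 1 array per zone, and the differences were not tested. All 4 have the infarct zone higher after myoblasts and lower in controls.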

How the results depend on the processing

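With no replicates, no array could be left out. No paired analysis was possible because each condition has 1 array. The counts at 2-fold depended on the threshold: at 4-fold, 0 probe sets were higher and 0 lower with myoblasts in the border zone, 2 higher in the infarct zone, and 0 lower in the infarct zone of controls. At 1.5-fold, 1 was lower with myoblasts in the infarct zone, and 2 were higher in the infarct than the border zone after myoblasts. With arrays centred on their medians 1 was at least 2-fold lower with myoblasts in the infarct zone, which is PPARGC1A (log2 ratio -1.03 in place of -0.99). The 1 probe set lower in the infarct zone of controls, the dimmer ANGPTL4 probe set, was not counted (0) with either floor, with probe sets above the array median only or by brightest probe set. Its log2 ratio of -1.80 became 0.0553 when low signals were raised to the 25th percentile of their array. After myoblasts its log2 ratio of infarct over border, -0.41, became 0.02 with low signals raised to the array median. These were the 2 changes of sign among 216 values of single probe sets. In each, both signals lay under the floor, so the value with the floor is set by the floors alone. The medians moved by less than the spread between the control arrays, but under quantile normalization those of myoblast over control were -0.10 (border) and -0.03 (infarct) in place of -0.18 and -0.14. The control median of infarct over border, -0.05, was 0.05 by brightest probe set and with the 25th percentile floor. FABP3 in the infarct zone under quantile normalization was the only value of a probe set other than the dimmer ANGPTL4 to move by more than that spread. Signal limits the dim probe sets most: 29.2% of those under 32 units were 2-fold higher with myoblasts in the infarct zone.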
